A study of Mus musculus with 8 samples.

Results

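The kidney cortex counts of 4 aged and 4 young mice were examined for 10 genes of the p53 pathway: Trp53, which encodes p53, the classic p53 targets Cdkn1a, Mdm2, Ccng1, Phlda3, Gdf15 and Gadd45a, the related genes Gadd45b and Gadd45g, and the cell cycle inhibitor Cdkn1b. They were chosen by symbol, for what is known of them in DNA damage and senescence, and are 10 of the 22609 genes counted. All mice were untreated C57BL6 males. The aged mice were 30 months and the young mice 5 months old by the labels, and each library came from the cortex of 1 mouse. The study's methods give the aged mice a somewhat higher mean age than the labels do. The groups differ in age alone as far as the labels say, and neither the hour of collection nor any disease of the aged mice is given.

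p53 is a transcription factor that is kept low by Mdm2, the ubiquitin ligase that marks it for degradation, and DNA damage and other stresses release it from this control. Released p53 binds paired copies of a short motif and raises its targets, among them Mdm2 itself, which closes a negative feedback loop, and Cdkn1a, whose product p21 inhibits cyclin-dependent kinases and stops the cell cycle. p21 is used as a marker of cellular senescence and is induced in renal tubules by injury, and it also responds to signals other than p53. The amount of p53 is set mostly through the stability of its protein, which RNA counts do not measure.

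Libraries held 14820804 to 19821429 read pairs counted on genes, so that 3 counts stood for 0.151 to 0.202 CPM. CPM are counts relative to the size of each library after scaling with edgeR's TMM factors. Of all genes, 13944 passed the filter on low counts and were tested, and all 10 p53 pathway genes were among them. Aged mouse 1 stood apart from the others, at -71.5 on the first principal component (48.1% of the variance), where the other aged mice lay between -16.3 and 2.26 and the young mice between 21.6 and 26.2. All libraries are labelled as cortex, yet 5 markers of the thin limb and inner medulla (Akr1b3 was at 0 counts throughout) reached a summed 375 CPM in aged mouse 1 and 130 CPM in young mouse 1, against 30.1 to 74.0 CPM in the other mice. Of these markers Slc14a2, the urea transporter gene of the inner medulla, picked after its values were seen, had 89.2 CPM in aged mouse 1 and 26.7 CPM in young mouse 1 and at most 0.327 CPM elsewhere. In whole tissue, a change in the share of a cell type cannot be told apart from a change in the RNA per cell.

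The p53 site was sought in mm9, on both strands, as a pair of 10-base half-sites with no bases between them. The window was 3000 bases on either side of the start of each gene's longest coding transcript. Both core tetramers had to be intact, and up to 2 mismatches were allowed elsewhere. Pairs of half-sites with bases between them were not sought, so the scan could not find them. Cdkn1a, Ccng1 and Gdf15 each had 1 such match, with 1 mismatch each, and the other 7 genes had none in this window. The 3 matches are shown because they are the stretches nearest in sequence to the motif that p53 is known to bind. They are written along the strand of the gene with the 20 bases of the match in capitals and 5 bases on each side.
Cdkn1a: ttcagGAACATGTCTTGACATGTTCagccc
Ccng1: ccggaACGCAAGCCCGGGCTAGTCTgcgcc
Gdf15: aggggTGACTTGCCTGAACTTGCCTtttct
The match of Cdkn1a (mm9, chr17:29227873-29227892, plus strand) began at position -2844 relative to the start of the longest coding transcript and ended 31 bases before the annotated gene. That of Ccng1 (chr11:40568438-40568457, minus strand) lay in an intron, 356 bases after the start, and that of Gdf15 (chr8:73155865-73155884, minus strand) lay in an exon, 110 bases after the start. A match with at most 1 mismatch occurred in 0.785% of the 13753 windows of genes tested, and one with at most 2 mismatches in 3.92%. Of 37 windows of other p53 targets, described further on, 6 held a match with at most 2 mismatches (16.2%), and that of Zmat3 had no mismatch. A match is a description of letters, and binding was not measured.

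Neither Trp53 nor the gene of its regulator Mdm2 passed the test, and the intervals of both lay within a 1.5-fold change. Trp53 (chr11:69393861-69405374, plus strand) stood at 23.4, 28.3, 20.3 and 24.1 CPM in aged mice 1 to 4, against 28.3, 27.9, 26.1 and 28.1 CPM in young mice 1 to 4. The young mice lay close together, and aged mouse 2 stood at their upper end while the other aged mice lay below them. On the log2 scale the fold change, aged minus young, was -0.20 (standard error 0.11, 95% confidence interval -0.44 to 0.04, adjusted p = 0.259 by edgeR's quasi-likelihood test). For Mdm2 (chr10:117125944-117147814, minus strand) the values were 69.9, 58.2, 73.3 and 64.6 CPM in the aged and 59.7, 55.2, 65.1 and 58.5 CPM in the young mice. The groups overlapped, with aged mice 2 and 4 inside the young range. Its log2 fold change was 0.16 (standard error 0.09, interval -0.05 to 0.37, edgeR adjusted p = 0.300), so that the interval of the fold reached from 0.966 to 1.29.

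Cdkn1a (chr17:29230717-29237667, plus strand, 3 exons) differed most of the 10 genes. Aged mice 1 to 4 had raw counts of 2320, 235, 463 and 165, and young mice 1 to 4 had 84, 74, 73 and 108. In CPM it stood at 114, 15.3, 24.7 and 8.99 in the aged and at 5.18, 3.91, 4.96 and 6.38 in the young mice. All 4 aged mice stood above all 4 young mice, and they were spread far wider, from aged mouse 1 at 22.3 times the young mean to aged mouse 4 at 1.76 times. The aged mean was 40.7 ± 49.2 CPM and the young mean 5.11 ± 1.01 CPM (SD, n = 4 each), and aged mouse 1 alone held 69.9% of the aged CPM.

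The fitted fold of Cdkn1a was 8.0 (95% confidence interval 2.43 to 26.3), a log2 fold change of 3.00 with a standard error of 0.76. The unadjusted p was 0.00334 and the adjusted p 0.0658 (edgeR quasi-likelihood, Benjamini-Hochberg), which did not pass the threshold of 0.05 and placed the gene at rank 709 by p. A two-sided exact permutation test over the mice, on log2 CPM, gave p = 0.0286, the smallest that 4 against 4 mice allow. Of all genes tested, 8.85% had all aged above all young mice, and 18.9% had no overlap in either direction.

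Without aged mouse 1 the estimate for Cdkn1a was smaller and passed the threshold. The remaining aged mice had 16.3 ± 7.93 CPM (SD, n = 3), the fitted fold was 3.20, and the log2 fold change was 1.68 (standard error 0.32, interval 0.96 to 2.40, edgeR adjusted p = 0.0274). In that fit 3.17% of all genes were called. Over the 17 other ways of fitting the counts the log2 fold change stayed between 1.68 and 3.33, and the gene was called in 5 of them, with adjusted p from 0.00431 with DESeq2 to 0.167 without young mouse 1. Medullary markers were highest in the same library as Cdkn1a. In young mouse 1, Slc14a2 was next highest at 26.7 CPM, below the 89.2 CPM of aged mouse 1. Cdkn1a had 5.18 CPM in young mouse 1, within the values of the other young mice. The part of these markers in the level of Cdkn1a was not tested in aged mouse 1 or young mouse 1. With both of these mice left out, an alternative chosen after the data had been seen, the log2 fold change of Cdkn1a was 1.69 (standard error 0.37, interval 0.83 to 2.55, edgeR adjusted p = 0.0796), and 0 of the 10 genes were called, where 0.366% of all genes were.

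**Figure D1:**
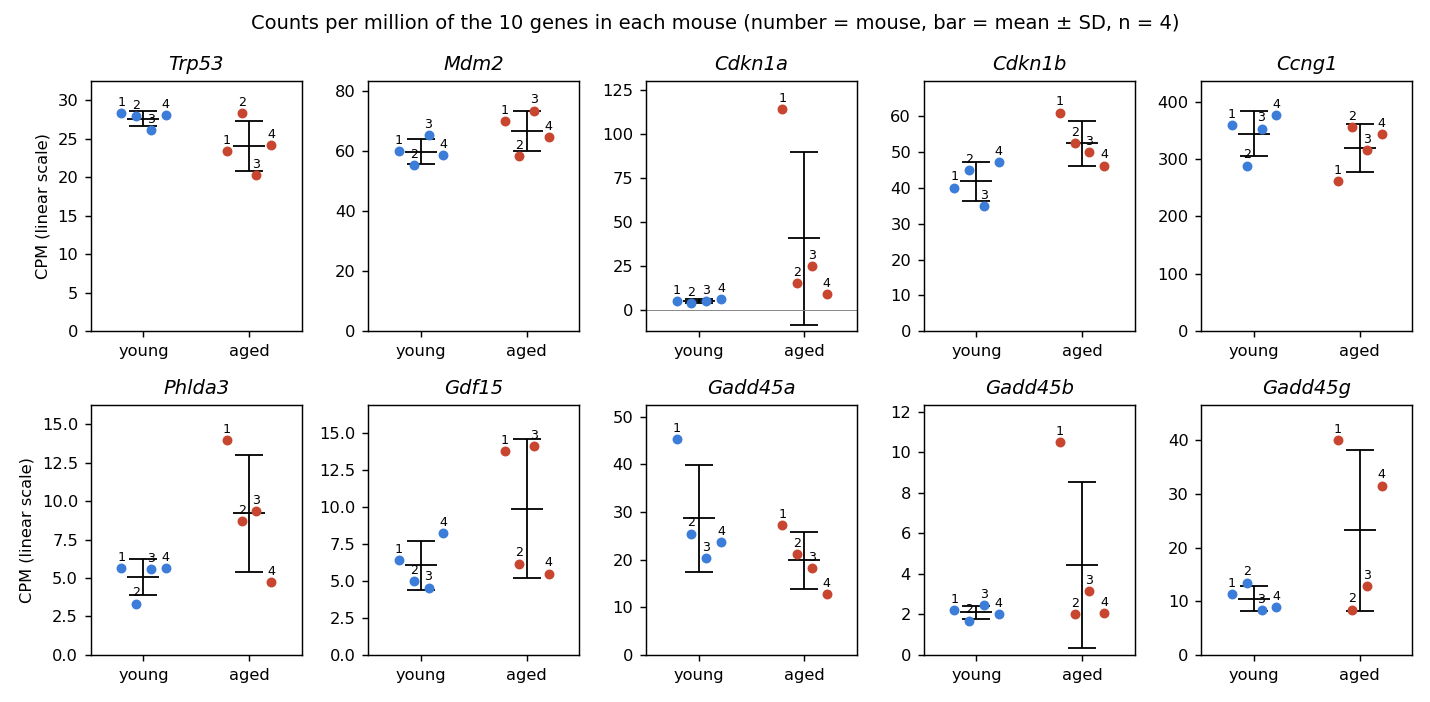
Each panel plots 1 gene, with CPM on a linear vertical axis and the young (blue) and aged (red) mice as numbered points beside the mean ± SD (n = 4). Cdkn1a is the panel where all 4 aged points lie above the young ones, with aged mouse 1 at 114 CPM, and the lower end of its aged SD bar passes below 0 because the SD (49.2) exceeds the mean (40.7).

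Cdkn1b encodes p27, an inhibitor of the same kinases as p21 that is controlled mostly after transcription and is not a classic p53 target. It had 61.1, 52.6, 50.03 and 46.3 CPM in the aged and 40.1, 45.0, 35.0 and 47.3 CPM in the young mice. Only aged mouse 4 and young mouse 4 crossed, and narrowly. Its log2 fold change was 0.33 (standard error 0.12, interval 0.06 to 0.60, edgeR adjusted p = 0.137, exact permutation p = 0.0571). Without aged mouse 1 it was 0.25 (adjusted p = 0.187 in edgeR).

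Ccng1 encodes cyclin G1, which takes part in the feedback on Mdm2 and p53. It was the most abundant of the 10 genes, at 262, 355, 316 and 344 CPM in the aged and 359, 288, 353 and 377 CPM in the young mice. Aged mouse 1, the highest for Cdkn1a, was the lowest of all 8 mice for Ccng1. The log2 fold change was -0.11 (standard error 0.12, interval -0.39 to 0.17, edgeR adjusted p = 0.601), and the interval of the fold, 0.763 to 1.13, does not reach a 1.5-fold rise.

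Phlda3 encodes a small protein that holds back Akt signalling. It had 14, 8.72, 9.35 and 4.74 CPM in the aged and 5.67, 3.33, 5.58 and 5.67 CPM in the young mice. Aged mice 1 to 3 lay above all young mice and aged mouse 4 lay within them, the same order of extremes as for Cdkn1a. The fitted log2 fold change was 0.87 (standard error 0.32, interval 0.15 to 1.58, edgeR adjusted p = 0.137). It was 0.59 (adjusted p = 0.209 in edgeR) without aged mouse 1 and 1.08 (adjusted p = 0.0377 in edgeR) without aged mouse 4, the only alternative in which Phlda3 was called.

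Gdf15 encodes a secreted cytokine of the TGF-beta family that is raised by many cellular stresses. It had 13.8, 6.18, 14.2 and 5.50 CPM in the aged and 6.41, 5.02, 4.56 and 8.27 CPM in the young mice. Aged mice 1 and 3 lay above all young mice, and aged mice 2 and 4 lay within the young range. The log2 fold change of 0.71 (standard error 0.35, interval -0.08 to 1.5, edgeR adjusted p = 0.235) did not pass the test.

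The Gadd45 genes encode small stress proteins that bind partners such as PCNA and the kinase MTK1, and only Gadd45a is a classic p53 target. Their fitted changes did not have 1 sign. Gadd45a had 27.3, 21.1, 18.2 and 12.8 CPM in the aged and 45.2, 25.4, 20.3 and 23.6 CPM in the young mice. The groups overlapped, with young mouse 1 far above the rest, and the log2 fold change was -0.53 (standard error 0.29, interval -1.18 to 0.13, edgeR adjusted p = 0.276). It was -0.73 without aged mouse 1 (adjusted p = 0.152 in edgeR) and -0.22 without young mouse 1 (adjusted p = 0.609 in edgeR).

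Gadd45b had 10.5, 2.02, 3.15 and 2.07 CPM in the aged and 2.22, 1.69, 2.45 and 2.01 CPM in the young mice. Aged mouse 1 held 59.2% of the aged CPM, and aged mice 2 and 4 lay among the young mice. The estimate on the log2 scale was 1.10 (standard error 0.53, interval -0.11 to 2.30, edgeR adjusted p = 0.231) with that mouse and 0.22 (adjusted p = 0.596 in edgeR) without it. Gadd45g had 40.0, 8.46, 12.8 and 31.5 CPM in the aged and 11.3, 13.5, 8.30 and 8.92 CPM in the young mice. It was the member in which aged mouse 4 was high, next to aged mouse 1, while aged mice 2 and 3 lay in the young range. Its log2 fold change was 1.14 (standard error 0.45, interval 0.13 to 2.16, edgeR adjusted p = 0.156).

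A gene was called when its adjusted p was below 0.05 and its fold above 1.5. By this rule 0 of the 10 genes were called, where 2.06% of all genes tested were, 1.17% higher and 0.889% lower in aged mice. By the adjusted p alone it was again 0 of 10, where 2.95% of all genes passed. At an unadjusted p below 0.05 there were 4 of 10 (Cdkn1a, Phlda3, Cdkn1b and Gadd45g), against 25.5% of all genes. DESeq2 and limma-voom each called 1, Cdkn1a, where they called 6.26% and 3.46% of all genes. The fitted log2 fold change was positive in 7 of the 10 genes and negative in Trp53, Ccng1 and Gadd45a, in all 17 other fits too. The median was 0.52, beside 0.03 over all genes, and 0.23 beside 0.02 without aged mouse 1. Without that mouse the log2 fold changes not yet given were -0.19 for Trp53, 0.13 for Mdm2, -0.03 for Ccng1, 0.51 for Gdf15 and 0.75 for Gadd45g, and in that fit 1 of the 10 genes, Cdkn1a, was called.

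**Figure D2:**
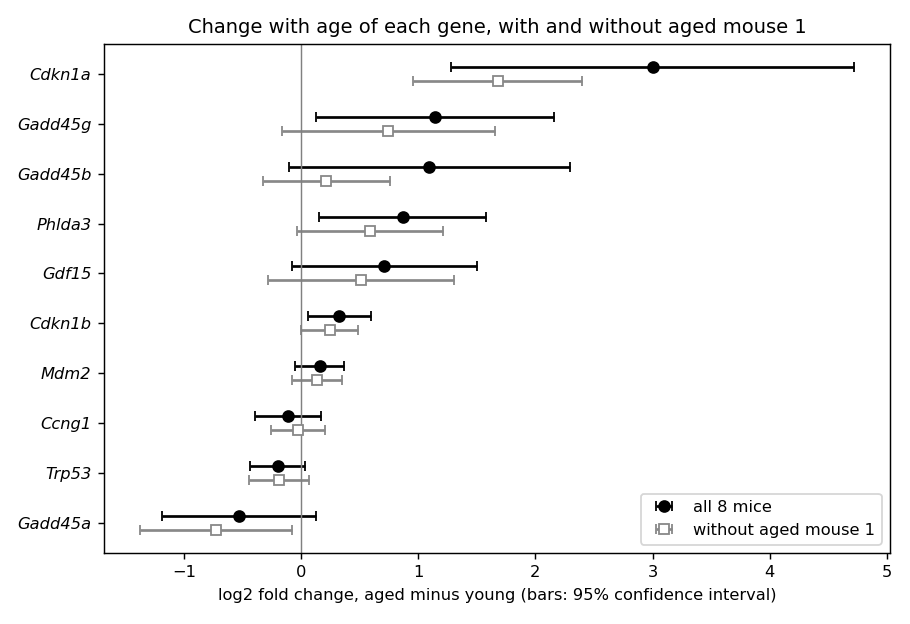
The horizontal axis gives the log2 fold change, aged minus young, with its 95% confidence interval, for all 8 mice (filled circles) and without aged mouse 1 (open squares). Both intervals of Cdkn1a lie above 0, at estimates of 3.00 and 1.68, and the estimate of Gadd45b moves from 1.10 to 0.22.

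Aged mouse 1 was the highest aged mouse in 6 of the 10 genes, as it was in 33.7% of all genes, and aged mouse 4 was the lowest in 5, as it was in 21.6% of all genes. The other aged mice did not carry a common shift. From aged mouse 1 to aged mouse 4, the median log2 difference of the 10 genes from the young mean was 0.88, 0.04, 0.30 and 0.00.

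Cdkn1a was then taken relative to each of the other 9 genes within the same library, which does not depend on the scaling between libraries. This comparison was chosen after the values had been seen. Aged mice 1 to 4 had 163, 26.3, 33.7 and 13.9 counts of Cdkn1a per 100 counts of Mdm2, and young mice 1 to 4 had 8.67, 7.09, 7.63 and 10.9. The groups again did not overlap. On average the log2 ratio exceeded that of the young mice by 2.15, and by 1.45 without aged mouse 1. Per 100 counts of Trp53 the aged mice had 37.2 to 487 counts of Cdkn1a and the young mice 14 to 22.7, and per 100 counts of Ccng1 the ranges were 2.62 to 43.5 and 1.36 to 1.69. In 8 of the 9 ratios the groups did not overlap. With each other gene tested as the reference in turn the same held for 11900 of 13929 genes (85.4%), so the count says nothing particular of these 9. The exception was Gadd45g, with a log2 difference of 1.41, where aged mouse 4 had 28.5 counts of Cdkn1a per 100 of Gadd45g, less than every young mouse.

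Levels of different genes can be compared only per length, so FPKM (the CPM per kilobase of the longest coding transcript) were used to order the genes. Ccng1 was first in both groups, at 90.9 ± 11.8 FPKM in aged and 98.1 ± 11 FPKM in young mice (SD, n = 4). In young mice Gadd45a (23.4 ± 9.20), Mdm2 (19.3 ± 1.33) and Trp53 (15.6 ± 0.562 FPKM) followed, and the first and last of these 3 differed by less than the SD of Gadd45a. Gadd45g (9.80 ± 2.22) and Cdkn1b (9.19 ± 1.19 FPKM) came next, again within their spread, and Gdf15 (3.93 ± 1.08), Phlda3 (3.53 ± 0.805) and Cdkn1a (2.67 ± 0.529 FPKM) formed a group of low genes above Gadd45b (1.65 ± 0.254 FPKM). In aged mice Cdkn1a was at rank 4 with 21.3 ± 25.8 FPKM, and its range from 4.71 to 59.6 FPKM spanned the mean of every other gene but Ccng1 and Gadd45b.

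The wider p53 program was read from a list of 40 other targets, of which 39 could be tested (Psrc1 could not). Pltp and Eda2r were called higher, 0 were called lower, and 37 did not pass the test, where 2.06% of all genes were called. An unadjusted p below 0.05 was reached by 16 of the 39, against 25.5% of all genes, and DESeq2 called 7, against 6.26%. Pltp, a phospholipid transfer protein, had 12.2, 14.6, 10.9 and 12.5 CPM in the aged and 6.16, 5.98, 5.78 and 6.56 CPM in the young mice. Its 4 aged mice lay close together at about the same distance from the young ones, and aged mouse 1 was not the highest. Its log2 fold change was 1.04 (standard error 0.12, edgeR adjusted p = 0.0125), and 1.05 without aged mouse 1.

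Eda2r, a receptor of the TNF receptor family, had 11.3, 4.36, 4.81 and 3.32 CPM in the aged and 1.66, 1.00, 1.5 and 2.13 CPM in the young mice. The aged mice took the order seen for Cdkn1a, with mouse 1 highest, mouse 3 next and mouse 4 lowest, and none overlapped the young mice. Its estimate was a log2 fold change of 1.92 (standard error 0.42, edgeR adjusted p = 0.0483) with all mice and 1.41 (adjusted p = 0.0270 in edgeR) without aged mouse 1. It was called in 10 of the 17 other fits and lost when any young mouse, or aged mouse 2 or 3, was left out, as well as under the replicate block, with adjusted p up to 0.135 without young mouse 1. Pltp was lost without young mouse 1, 3 or 4, with adjusted p up to 0.0632.

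Steap3, a metalloreductase of iron uptake, had the third smallest p of the list, with 2.90, 5.20, 4.28 and 4.69 CPM in the aged and 8.26, 7.40, 6.26 and 7.56 CPM in the young mice. All 4 aged mice lay below the young ones. Its log2 fold change was -0.79 (edgeR adjusted p = 0.0621), and -0.65 (adjusted p = 0.0421 in edgeR) without aged mouse 1.

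Other targets were picked for their roles after the values had been seen. Of the apoptosis genes, Bbc3, which encodes Puma, had 6.53, 5.98, 2.73 and 1.96 CPM in the aged and 1.30 to 2.47 CPM in the young mice (log2 fold change 1.27, edgeR adjusted p = 0.106). Bax had 16.7 to 24.5 CPM in the aged and 21.3 to 23.7 CPM in the young mice (-0.12, adjusted p = 0.590 in edgeR), and Fas had 9.51 to 15.2 CPM and 7.25 to 8.75 CPM (0.53, adjusted p = 0.102 in edgeR). The groups overlapped for Bbc3 and Bax and were separate for Fas. Among the repair and detoxification genes, Ddb2, a sensor of ultraviolet damage, had 17.4 CPM in aged mouse 1, 7.59 to 8.55 CPM in the other aged mice and 5.32 to 6.16 CPM in the young mice (0.85, adjusted p = 0.104 in edgeR). Ephx1, an epoxide hydrolase, had 117, 46.9, 40.7 and 35.3 CPM in the aged and 25.3 to 30.9 CPM in the young mice (1.08, adjusted p = 0.108 in edgeR). Both had separate groups, with aged mouse 1 more than 2 times as high as any other mouse. Rrm2b, a subunit of ribonucleotide reductase, went the other way, with 41.5, 42.3, 45.4 and 52.1 CPM in the aged and 53.2 to 58.3 CPM in the young mice (-0.30, adjusted p = 0.0915 in edgeR). Polk, a translesion DNA polymerase, had 21.9 to 24.7 CPM and 19.9 to 23.2 CPM (0.06, adjusted p = 0.668 in edgeR).

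Over the 39 tested targets the log2 fold change was positive in 29 and negative in 10, with a median of 0.20 beside 0.03 over all genes. Without aged mouse 1 the median was 0.07 beside 0.02. In 7 of the 39 all aged mice stood above all young mice and in 4 they all stood below, against 8.85% and 10% of all genes.

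**Figure D3:**
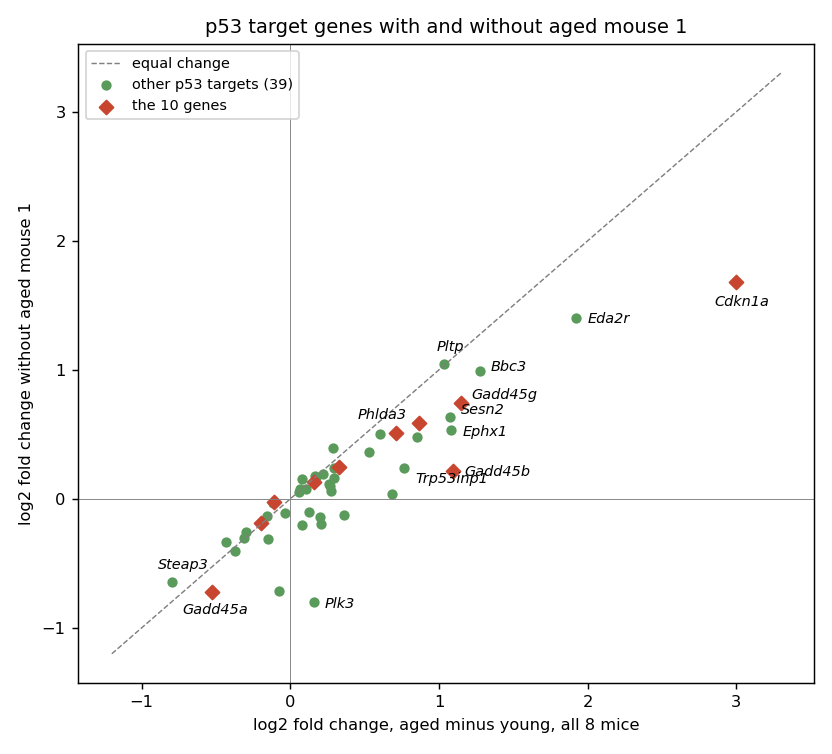
Each point is 1 p53 target, with its log2 fold change over all 8 mice on the horizontal axis and without aged mouse 1 on the vertical axis, and the dashed line marks equal values. Cdkn1a (3.00 and 1.68) lies farthest to the right and below the line, and Pltp (1.04 and 1.05) lies on it.

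Of 14 regulators of p53 tested, 0 passed both thresholds in edgeR or DESeq2, where 2.06% and 6.26% of all genes did. An unadjusted p below 0.05 was reached by 7 of the 14, against 25.5% of all genes. Atm, the kinase that activates p53 after double-strand breaks, was the 1 regulator with an adjusted p below 0.05, with 102, 100, 96.4 and 105 CPM in the aged and 73.2, 76.1, 84.6 and 78.8 CPM in the young mice. The groups were separate and narrow, and the log2 fold change was 0.37 (standard error 0.07, edgeR adjusted p = 0.0390), a fold under 1.5. Its adjusted p was not below 0.05 in 8 of the 17 other fits, reaching 0.126 without young mouse 4. Rchy1, a ubiquitin ligase for p53, and Mdm4, the partner of Mdm2, had log2 fold changes of 0.28 and 0.38 (adjusted p = 0.0821 and 0.141 in edgeR).

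Of 16 cell cycle inhibitors and their targets tested, Cdkn2c alone was called, where 2.06% of all genes were. Cdkn2c encodes p18, an inhibitor of the kinases Cdk4 and Cdk6, and had 9.23, 10.6, 8.28 and 9.21 CPM in the aged and 5.05, 5.45, 6.26 and 6.20 CPM in the young mice. The 4 aged mice lay together above the young ones. The change was 0.70 on the log2 scale (standard error 0.13, edgeR adjusted p = 0.0390, and 0.0309 without aged mouse 1), and the call was lost in 7 of the 17 other fits. Cdk6 and the cyclin gene Ccnd2 had log2 fold changes of -0.45 and -0.56 (adjusted p = 0.0621 and 0.0707 in edgeR). Cdkn2a, which encodes the senescence marker p16 and also p19Arf, was too low to test, with 5, 2, 1 and 3 counts in the aged mice and 0 in each young mouse, where a count of 0 allows up to 3 per library.

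None of 11 proliferation genes was called by edgeR, where 2.06% of all genes were, and 9 of them had negative log2 fold changes (median -0.29). Of these 11, 3 had an unadjusted p below 0.05 and 2 were called by DESeq2, against 25.5% and 6.26% of all genes. The 3 with the smallest p had log2 fold changes of -1.11 for Top2a, -0.85 for Mki67 and -1.16 for Ccna2 (adjusted p = 0.0811, 0.10 and 0.145 in edgeR). On the list of senescence and its secretions, Il1a, Il6, Tnf, Mmp3 and Timp1 were too low to test. Of the 19 genes of this list that were tested, 0 were called by edgeR, with 3 at an unadjusted p below 0.05 and 2 called by DESeq2. Those with the smallest p were the chemokine gene Ccl5 (1.63, adjusted p = 0.0811), Glb1, which encodes the lysosomal beta-galactosidase (-0.85, adjusted p = 0.0926), and Spp1, which encodes osteopontin (0.54, adjusted p = 0.174). Glb1 thus had its lower values in the aged mice, at 51.7 to 147 CPM against 169 to 180 CPM.

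Other stress responses stood high in aged mouse 1 as well. The median log2 difference from the young mean in that mouse was 1.77 over 16 glucocorticoid-responsive genes, 0.98 over 17 genes of the integrated stress response, 0.87 over 14 immediate early genes, 0.78 over 11 genes of tubular injury and 0.64 over the 39 other p53 targets. In aged mice 2 to 4 these medians lay between -0.33 and 0.36. Sesn2 and Btg2 are p53 targets that also stand on the stress response and the immediate early list. Zbtb16, a glucocorticoid-induced transcription factor, had 149, 21.9, 40.7 and 37.6 CPM in the aged and 5.92 to 9.0 CPM in the young mice, and Sgk1, a kinase induced by corticosteroids, had 490, 82.2, 266 and 105 CPM and 66.6 to 98.5 CPM. For Sgk1 mice 1 and 3 were the high ones, as for Cdkn1a, and the log2 fold changes were 3.00 (edgeR adjusted p = 0.0390) for Zbtb16 and 1.61 (edgeR adjusted p = 0.103) for Sgk1. Of these lists, Zbtb16 and the immediate early gene Myc (log2 fold change 1.49, edgeR adjusted p = 0.0385) were called, and each call was lost in 5 of the 17 other fits, with adjusted p up to 0.125 for Zbtb16 without young mouse 4 and 0.115 for Myc without young mouse 1. In edgeR 0 genes were called among those of the integrated stress response (3 at an unadjusted p below 0.05 and 1 called by DESeq2) and of tubular injury (5 and 1). Over all genes, 25.5% had an unadjusted p below 0.05 and DESeq2 called 6.26%. Fkbp5, another glucocorticoid target, had 391 CPM in aged mouse 1 and 73.0 to 138 CPM in the other aged mice, against 177 to 255 CPM in the young mice. Their part in the values of Cdkn1a was not tested.

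**Figure D4:**
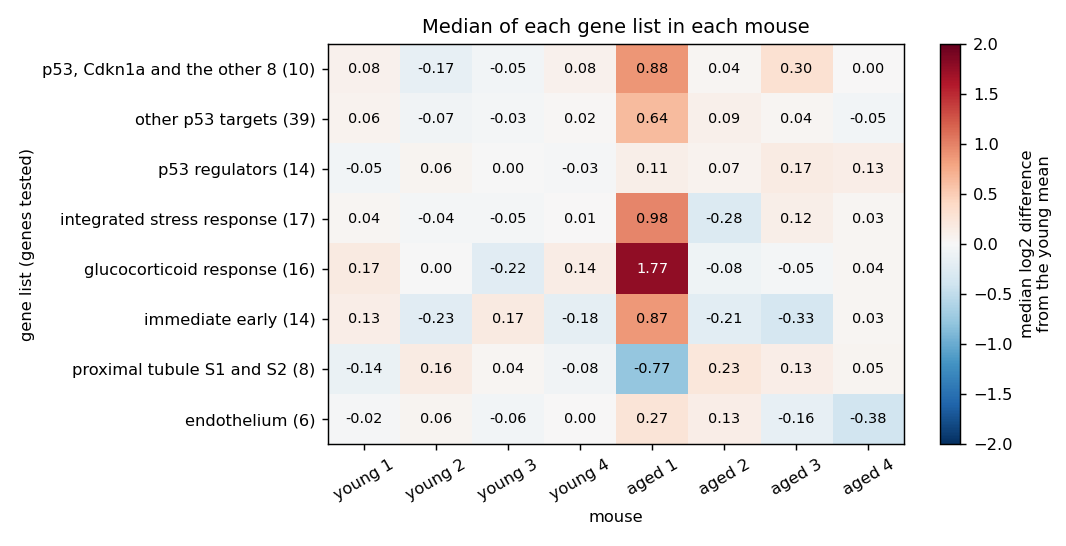
Rows are gene lists (genes tested in brackets), columns are mice, and color and number give the median log2 difference of the list from the young mean. In aged mouse 1 the 10 p53 pathway genes stand at 0.88 and the glucocorticoid-responsive genes at 1.77, whereas the proximal tubule markers stand at -0.77.

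Markers of the tissue were present in every library. Beside the counts of markers below, edgeR called 2.06% of all genes, DESeq2 called 6.26%, and 25.5% had an unadjusted p below 0.05. The summed level of 8 markers of proximal tubule segments S1 and S2 was 11562 to 24481 CPM in the aged and 21238 to 25779 CPM in the young mice, with aged mouse 1 lowest, and edgeR called 0 of the 8 (3 at an unadjusted p below 0.05, and 3 called by DESeq2). That of 5 markers of segment S3 was 595 to 2957 CPM and 3400 to 5044 CPM, and all 5 had negative log2 fold changes, of which edgeR called 0 and DESeq2 called 4, with all 5 at an unadjusted p below 0.05. Summed levels of B and plasma cell markers were 34.0 to 99.4 CPM and 7.62 to 16.7 CPM, those of neutrophil markers 6.41 to 7.79 CPM and 2.59 to 5.14 CPM, and those of macrophage markers 72.4 to 133 CPM and 90.6 to 132 CPM. Most of the B and plasma cell sum came from the plasma cell gene Igj. Igj had 31.1 to 96.5 CPM in the aged and 5.29 to 13.6 CPM in the young mice. It was called higher (log2 fold change 2.65, edgeR adjusted p = 0.0311) and the macrophage receptor gene Csf1r lower (-1.0, edgeR adjusted p = 0.0472). Csf1r was the only 1 of the 6 macrophage markers with a negative log2 fold change, and the other 5 had positive ones (median of all 6, 0.36). The call of Igj was lost in 4 and that of Csf1r in 7 of the 17 other fits, with adjusted p up to 0.118 and 0.132, both without young mouse 4. In the other 9 marker lists edgeR called 0 of 42 genes (10 at an unadjusted p below 0.05, and 3 called by DESeq2). Of the 11 genes of tubular injury, 9 had positive log2 fold changes and 5 an unadjusted p below 0.05. Vcam1, an adhesion molecule, had 22.1, 19.4, 17.7 and 18.9 CPM in the aged and 10.9 to 15.5 CPM in the young mice (0.59, edgeR adjusted p = 0.0525). Havcr1, which encodes Kim-1, had 1.13 CPM in aged mouse 1 and 2.15 to 3.00 CPM in the other aged mice, and Lcn2 had 16.4 CPM and 1.23 to 1.82 CPM. The young mice had 0.408 to 2.90 CPM of Havcr1 and 0.846 to 3.45 CPM of Lcn2. Of 17 clock genes, 3 were called higher and 2 lower, where 1.17% and 0.889% of all genes were. Arntl stood at 22.2 to 38.5 CPM in the aged and 4.28 to 5.55 CPM in the young mice, and aged mouse 1 at 36.6 CPM was not apart from aged mice 2 and 3. The part of cell composition and of clock phase in the values of the p53 targets was not tested.

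Across the 8 mice, log2 CPM of Cdkn1a was most like that of Acot1 (Pearson r = 0.991), Tle1 (0.989), Tmem43 (0.987), Herpud2 (0.986) and Rusc2 (0.985), and least like that of Gfm1 (-0.997), Mrps5 (-0.997), B3galt5 (-0.995), Erp44 (-0.995) and 4931417G12Rik (-0.994). These values share the age groups and aged mouse 1 as their extremes. Without aged mouse 1, r was 0.952 to 0.994 for the genes most like Cdkn1a and -0.992 to -0.979 for those least like it. Among the p53 pathway genes r was highest for Phlda3 (0.917, and 0.856 over the 7 mice without aged mouse 1), followed by Gadd45b (0.902, 0.634 without), Cdkn1b (0.831) and Gdf15 (0.817). From the highest r down, these genes ranked 276, 403, 1096 and 1241 among all genes tested. For Mdm2 r was 0.681, and 0.636 without aged mouse 1. For Gadd45g it fell from 0.615 to 0.08 without that mouse. Ccng1 (-0.620) and Trp53 (-0.617) ran the other way, and without aged mouse 1 Ccng1 had no relation (0.00) while Trp53 stood at -0.684.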

How the data were processed

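RNA of the kidney cortex was depleted of ribosomal RNA and made into stranded libraries. The authors used TopHat2 for alignment to mm9 and deposited raw counts per RefSeq gene from HTSeq, with CASAVA 1.8.2 named in the submitters' notes. Rows that name no gene (59.4% to 64.5% of the sum of a table) entered neither library sizes nor tests. A joint table of the series held the same values as the tables of single libraries.

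Counts were normalized by TMM and tested in edgeR 4.0.16 (R 4.3.3) by quasi-likelihood, with filterByExpr (minimum count 10), no covariate and Benjamini-Hochberg adjustment over 13944 genes. Calls needed an adjusted p below 0.05 together with a fold above 1.5. log2 CPM used a prior count of 2. Alternatives were other scalings and filters, DESeq2 1.42.0, limma-voom (limma 3.58.1) with quality weights, robust fitting, the replicate number as a block, and each mouse left out in turn. On simulated counts of 13859 genes for aged against young, edgeR recovered 61% of 2-fold and 94% of 4-fold changes, and 7.74% of its calls were false. DESeq2 recovered 74% and 97%, with 18.2% of its calls false. For limma-voom the shares were 60% and 94%, with 4.94% false. The simulation gave both groups the same spread and set no library apart, unlike these data, so its rates need not hold here. Transcripts came from GENCODE vM1 (98.6% of genes tested had a length), no member had a copy of 98% identity over 100 bases elsewhere in mm9 (BLAST 2.17.0), and none shared an exon with another gene on its strand.

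The members and the gene lists were chosen with earlier results of these data known. Named genes are the members, list genes with an adjusted p below 0.05 or otherwise the 3 of smallest p per list, the 5 most and 5 least like Cdkn1a, and 7 genes set beside them, one of which (Actb, log2 fold change -0.26, edgeR adjusted p = 0.299) served as a reference gene. Cell type marker lists were given as summed levels, naming only markers past the adjusted p. The search for p53 sites, the ratios of Cdkn1a to other members and the fit without aged mouse 1 and young mouse 1 were chosen after the data had been seen. Intervals on counts of 0 cover counting error only.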

Additional observations from a re-analysis of the deposited data

Results flagged for a closer look

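In groups of 4 mice, a mouse was marked when its gap to the nearest of the others, in CPM on a linear scale, took a larger part of the group's range than Dixon's 95% value allows. This happened 14 times in 96 groups of named genes, where chance gives about 1 in 20 groups for values spread normally, and 3 times in the 20 groups of the p53 pathway genes. The groups left out the genes most and least like Cdkn1a and the p53 targets picked for their roles, Ddb2 and Ephx1 among them. Aged mouse 1 was the high mouse for Cdkn1a (gap 0.850 of the range) and Gadd45b (0.866), and young mouse 2 the low one for Phlda3 (0.960). Aged mouse 1 was also the high mouse for Btg2 (0.894), Lcn2 (0.961), Nupr1 (0.959), Pdk4 (0.959) and Zbtb16 (0.851). Elsewhere the marked mouse was aged mouse 4, low for Arntl (0.883) and high for Ccl5 (0.862), aged mouse 3, high for Igj (0.927), young mouse 3, low for Glb1 (0.845), young mouse 1, high for Nupr1 (0.893), and young mouse 4, high for Sesn2 (0.876). On log2 CPM 8 of the 14 gaps were still past Dixon's value, that of Phlda3 (0.968) among them, while those of Cdkn1a (0.601) and Gadd45b (0.729) were not.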

How the results depend on the processing

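The 95% interval of the fold of Cdkn1a reached from 2.43-fold to 26.3-fold. Cdkn1a was also called with library size only (log2 fold change 3.14), with DESeq2 (2.99) and with limma-voom (1.82), and leaving out 1 mouse gave 1.68 to 3.33. The p53 pathway genes called, 0 of 10, became 1 with library size only, DESeq2 or limma-voom, and 0 to 2 with 1 mouse left out. The 2 other p53 targets called became 7 with DESeq2, 1 with the replicate block, and 0 to 4 with 1 mouse left out. Genes changed, 287, became 488 with library size only, which moved the median of all genes by 0.11 and the higher share of the calls from 56.8% to 75.4%, 873 with DESeq2, 483 with limma-voom, 130 with the replicate block, and 8 (without young mouse 1) to 733 (without aged mouse 4) with 1 mouse left out. With aged mouse 1 and young mouse 1 both left out, chosen after the data had been seen, 51 genes and 1 of the other p53 targets were called. By the adjusted p alone 411 genes passed, and 0 of the 10. The labels do not say that replicate numbers pair the mice. Correlations of equal numbers lay between -0.03 and 0.21, and those of unequal numbers between -0.30 and 0.17. The highest was that of aged mouse 1 with young mouse 1, and these values do not settle whether the numbers pair mice. With the block Cdkn1a had a log2 fold change of 2.32 (edgeR adjusted p = 0.0979). Direction reversed for Fkbp5 without aged mouse 2 (0.00, range with 1 mouse left out -0.95 to 0.00), Havcr1 without aged mouse 4 (-0.02) or young mouse 3 (-0.14, range -0.14 to 0.47), and Lcn2 without aged mouse 1 (-0.36, range -0.36 to 1.86). The cause of these moves was not tested.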
